A study of Homo sapiens with 6 samples.

Results

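Enzymes that build triglycerides and membrane phospholipids were followed in T24 cells, an established human bladder cancer line, with and without overexpression of RNF112, a RING finger gene. The set was fixed by gene symbol: 39 symbols of glycerol-3-phosphate and lysophospholipid acyltransferases, lipins, diacylglycerol acyltransferases and headgroup enzymes were listed, and 38 of them had a row among the 23152 genes of the deposited table. Of these 38, 36 had enough reads to be tested. No row carried the symbol GPAT2, which was not analysed here, and CHKB and LPCAT2 were almost without reads.

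The question was what lies downstream of RNF112 in bladder cancer cells, and mRNA was sequenced from 3 samples labelled vector and 3 samples labelled oeRNF112. All 6 came from T24 cells grown in medium with serum, and nothing in the labels says whether the samples of a group were separate cultures, so the p-values below measure only the spread between these samples. The labels describe a transfection of siRNA with a lipid reagent, whereas the group names and the study's methods describe an overexpression plasmid. How long the cells carried the plasmid, and whether they were a selected line, is not given in the sources used here, and no sample carries a mutant RNF112 that would separate the protein from the presence of a construct.

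Glycerolipid synthesis starts when a fatty acid is joined to glycerol-3-phosphate, and a next acyl chain then gives phosphatidic acid. Phosphatidic acid stands at a fork. Lipins remove its phosphate to give diacylglycerol, from which cells make triglyceride for storage, phosphatidylcholine and phosphatidylethanolamine. CDP-diacylglycerol synthases instead activate it with CTP for phosphatidylinositol, phosphatidylglycerol and cardiolipin, the phospholipid typical of the inner mitochondrial membrane. Lysophospholipid acyltransferases later exchange the acyl chains of finished phospholipids.

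The libraries held between 40029547 and 41259569 counted reads, so a count of 0 allows up to 3 reads, or 0.0727 to 0.0749 CPM (reads scaled to a common library total), counting error only. CPM values in later paragraphs were normalized with TMM factors, from 0.957 to 0.988 for vector and from 1.01 to 1.05 for oeRNF112. Marker values in this paragraph were scaled by library totals only. RNF112 itself had 27, 19 and 24 reads in the vector samples and 29753, 36963 and 31712 reads in the oeRNF112 samples, a log2 fold change of 10.37 (standard error 0.177, edgeR adjusted p = 7.4e-10), and these reads may include transcripts of the construct. Among markers of other cell types, the summed level stayed under 11 CPM in every sample: leukocyte genes reached 9.22 to 10.5 CPM in vector and 5.48 to 10.6 CPM in oeRNF112, with 2 of 7 genes above 1 CPM in all samples. Fibroblast genes summed to 2.36 to 3.43 CPM in vector and 2.71 to 3.54 CPM in oeRNF112, and endothelial genes to under 0.6 CPM in both groups, and no gene of these lists was at 0 in all samples. Keratins and EPCAM were expressed, whereas the epithelial cadherin CDH1 had at most 1 read in a sample. The 6 epithelial genes summed to 3485 to 4351 CPM in vector and 2841 to 3296 CPM in oeRNF112. VIM and CDH2, mesenchymal markers of the line, summed to 4088 to 4504 CPM in vector and 3545 to 4313 CPM in oeRNF112, ranges that overlapped. The part of these shifts in the results below was not tested. In bulk RNA, fewer cells that express a gene and less RNA of it per cell cannot be told apart.

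T24 cells of both groups expressed nearly the whole set of synthesis enzymes. On the scale of RPKM, which takes out gene length and sequencing depth so that genes can be compared, 18 of the 36 tested genes had a vector mean of 10 or more. The highest was AGPAT2, the lysophosphatidic acid acyltransferase whose loss causes congenital lipodystrophy, at a mean of 53.1 RPKM in the 3 vector samples. It was followed by MBOAT7, which places arachidonate into phosphatidylinositol, at 32.9 RPKM, and by PTDSS1, which exchanges choline for serine on phosphatidylcholine, at 30.5 RPKM. CDIPT, the phosphatidylinositol synthase, stood at 28.7 RPKM. At the low end, 6 genes were under 3 RPKM. The 2 lowest of the tested genes were CDS1 at 0.582 RPKM and DGAT2, which catalyses the last step of triglyceride synthesis, at 0.389 RPKM.

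**Figure D1:**
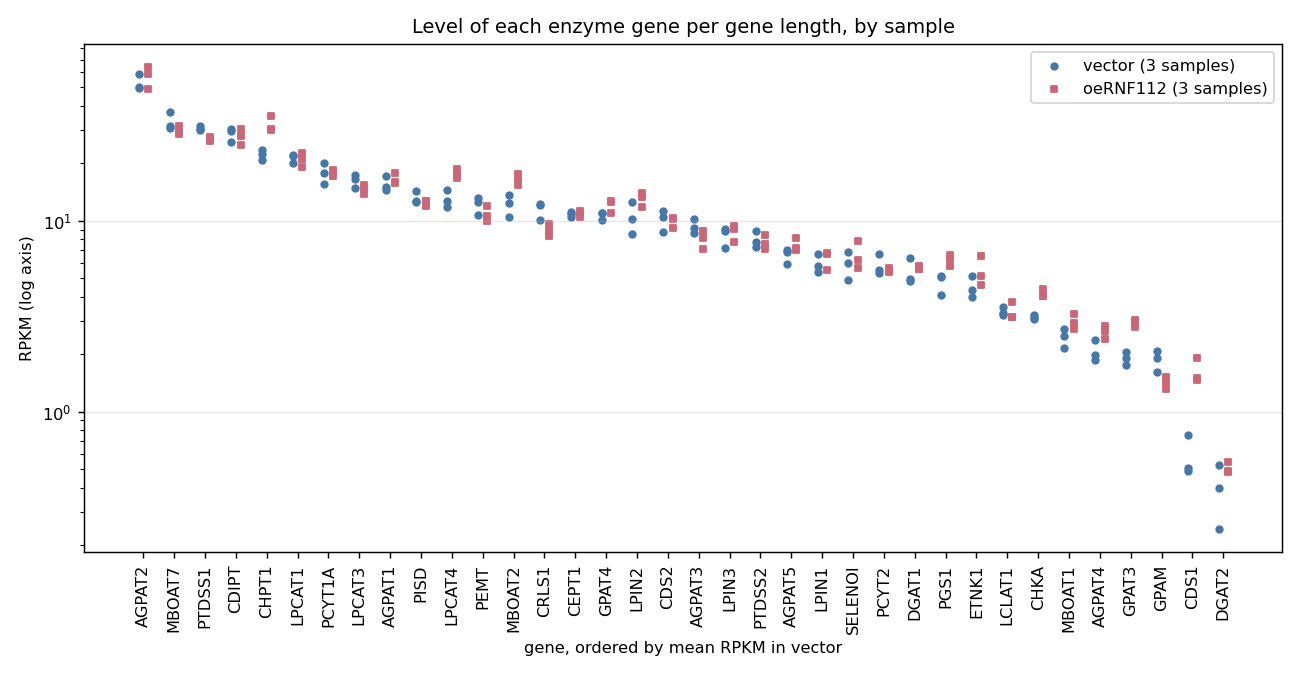
RPKM (log axis) of the 36 tested enzyme genes in each sample, ordered by the vector mean, with circles for the 3 vector and squares for the 3 oeRNF112 samples. Levels run from a vector mean of 53.1 for AGPAT2 to 0.389 for DGAT2, and CDS1 is the gene whose squares stand farthest above its circles.

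CHKB, one of the 2 choline kinases, had 0, 0 and 3 reads in vector and 2, 0 and 0 reads in oeRNF112. In GENCODE 29 it shares 72.5% of its exonic bases (2189 of 3021) with the readthrough gene CHKB-CPT1B on the same strand, and how the counting treated reads on shared bases is not given in the sources used here. LPCAT2, an acyltransferase of platelet-activating factor synthesis, had 0, 1 and 1 reads in vector and 1, 0 and 0 reads in oeRNF112. Both genes lay at or under the 3-read limit in every sample, so no fold was computed.

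Between the groups, 7 of the 36 tested enzyme genes differed at an adjusted p under 0.05 (edgeR quasi-likelihood test, Benjamini-Hochberg over all 14467 genes tested), 4 higher and 3 lower in oeRNF112. GPAT3, CHPT1, CDS1 and MBOAT2 rose, and GPAM, PTDSS1 and CRLS1 fell. When single samples were left out, these counts ran from 2 enzyme genes and 1061 of all genes without vector replicate 1 to 8 and 3387 without vector replicate 2, with 2 enzyme genes also without oeRNF112 replicate 1 and 4 without oeRNF112 replicate 2 or 3. A fit with the replicate number as a block called 1 enzyme gene, CDS1. The share of 19.4% stood beside 18.1% of all genes tested (2620 genes), of which 9.97% were higher and 8.14% lower, so the share called was close to that of all genes tested. Scaling by library totals instead of TMM factors changed the split over all genes from 55.0% higher to 75.4% higher (2020 higher and 659 lower; limma on RPKM gave 70.5% to 73.8%), and that within the set from 4 higher and 3 lower to 7 higher and 1 lower. Over the 36 genes, the log2 fold change had a median of -0.012 under TMM scaling and 0.082 under library totals, beside 0.003 and 0.096 for all genes tested. The values of the 3 samples of each group did not overlap for 15 of the 36 genes (41.7%, 7 above and 8 below), against 36.8% of all genes tested. For a called gene, here and below, lack of overlap comes from the same values as the call and is no separate support.

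Changes were small with 1 exception. The median absolute log2 fold change was 0.183 in the set and 0.217 over all genes tested. Only CDS1 passed an absolute log2 fold change of 1, which is 2.78% of the set beside 5.67% of all genes (edgeR fit).

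**Figure D2:**
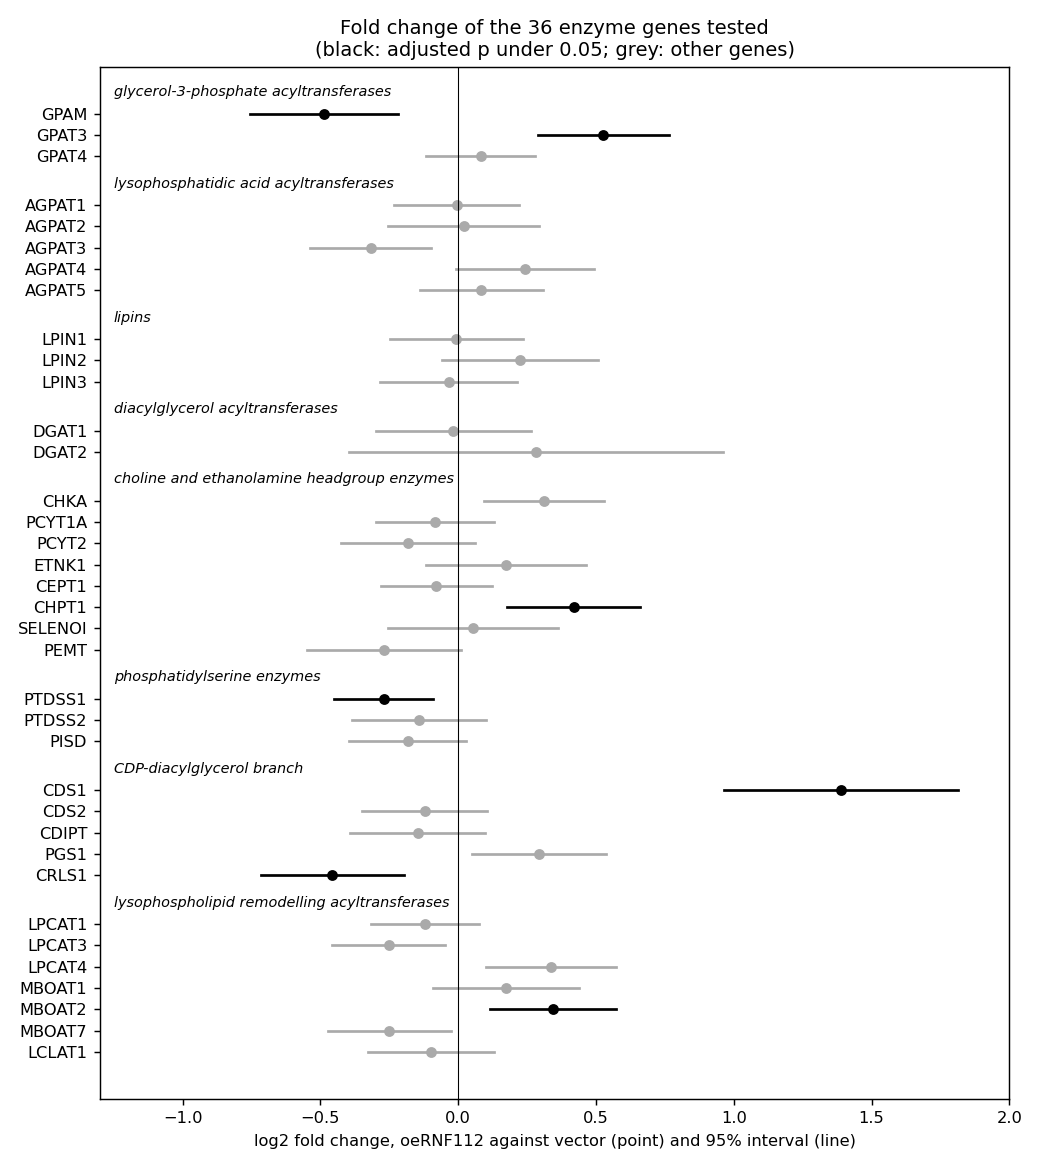
Fold change of the 36 tested enzyme genes in oeRNF112 against vector on the log2 scale (horizontal axis), grouped by step of the pathway, with lines for the 95% confidence interval. The 7 genes in black had an adjusted p under 0.05, and CDS1 at 1.39 stands apart from the other genes, which lie between -0.49 and 0.53.

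Glycerol-3-phosphate acyltransferases catalyse the first acylation. A pair of isoenzymes of this step moved in opposite directions, and the most abundant isoenzyme did not pass the test. GPAM, the isoenzyme of the outer mitochondrial membrane, had 15.2, 16.0 and 12.9 CPM in vector and 10.5, 9.83 and 11.1 CPM in oeRNF112. All oeRNF112 samples were lower than all vector samples, and the level fell to 0.713 of vector (log2 fold change -0.49, standard error 0.12, edgeR adjusted p = 0.0213). GPAT3, an isoenzyme of the endoplasmic reticulum, had 10.7, 11.3 and 9.95 CPM in vector and 14.6, 15.8 and 15.7 CPM in oeRNF112. The 2 groups were again apart, and GPAT3 rose 1.44-fold (log2 fold change 0.53, standard error 0.106, edgeR adjusted p = 0.00921). GPAT4 had 70.5 ± 3.27 CPM in vector and 74.6 ± 5.0 CPM in oeRNF112 (SD, n = 3 each) and did not pass the test (95% interval of its log2 fold change -0.12 to 0.28). The call on GPAM was lost without vector replicate 1, oeRNF112 replicate 1 or oeRNF112 replicate 2, and 7 of 15 alternative fits kept it, whereas GPAT3 kept its call whichever sample was left out.

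Within this step the RNA composition was therefore compared per gene length. GPAM and GPAT3 had already been called in these samples, so their shares and ratio restate those calls and give no separate support. RPKM values carry no TMM factor. GPAM made up 13.8%, 13.8% and 11.2% of the summed RPKM of the 3 isoenzymes in vector and 8.45%, 8.60% and 8.92% in oeRNF112. GPAT3 held 13.7%, 13.6% and 12.2% in vector and 16.5%, 19.4% and 17.8% in oeRNF112. The ratio of GPAT3 to GPAM RPKM was 0.994, 0.989 and 1.09 in vector and 1.95, 2.26 and 1.99 in oeRNF112, so that the 2 genes were at near equal level in vector and GPAT3 was the higher one in every oeRNF112 sample. GPAT4 held 73.9% ± 2.32 in vector and 73.5% ± 1.58 in oeRNF112 (SD, n = 3 each). With 3 samples against 3, an exact two-sided permutation test cannot give a p below 0.1, which is the value it gave for the shares of GPAM and GPAT3 and for their ratio. Lack of overlap was common among shares: it held for 17 of the 32 isoenzyme shares in the 11 families examined. Shares within a family add up to the whole, so they are not independent of each other.

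None of the 5 lysophosphatidic acid acyltransferases passed the test, beside 18.1% of all genes tested. With so few genes per step, here and below, a count of calls does not set a step apart from that share. AGPAT2, which held 61.2% ± 2.04 of the family's summed RPKM in vector and 62.2% ± 3.72 in oeRNF112 (SD, n = 3 each), had a log2 fold change of 0.02 (95% interval -0.25 to 0.29). AGPAT3 came nearest: it had 89.6, 104 and 95.6 CPM in vector and 84.6, 70.2 and 76.9 CPM in oeRNF112, with a log2 fold change of -0.32 and an edgeR adjusted p of 0.0506. Its groups did not overlap, and DESeq2 and edgeR with DESeq2 size factors did call it. AGPAT1, AGPAT4 and AGPAT5 had log2 fold changes between -0.01 and 0.24, and 29.9% of the exonic bases of AGPAT1 lie opposite PPT2-EGFL8 in GENCODE 29.

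The 3 lipins, phosphatidate phosphatases that lead into triglyceride and phosphatidylcholine, gave no call either (18.1% of all genes tested were called). LPIN1 had 41.0 ± 3.77 CPM in vector and 40.8 ± 4.0 CPM in oeRNF112, and LPIN3 46.5 ± 5.39 and 45.4 ± 3.97 CPM (SD, n = 3 each). LPIN2, the most abundant of them per gene length, had a log2 fold change of 0.23 (95% interval -0.06 to 0.51, edgeR adjusted p = 0.244) and was called only when vector replicate 2 was left out.

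Diacylglycerol acyltransferases add the last acyl chain of triglyceride. DGAT1 had 19.9, 18.9 and 25.8 CPM in vector and 21.7, 21.4 and 20.7 CPM in oeRNF112. The oeRNF112 values lay inside the range of the vector values, with a log2 fold change of -0.02 (95% interval -0.30 to 0.26). DGAT2 was low, at 0.632, 1.0 and 1.37 CPM in vector and 1.16, 1.34 and 1.16 CPM in oeRNF112. Its interval, from -0.40 to 0.96, was the only one among the 29 genes without a call that reached beyond a 1.5-fold change in either direction. DGAT1 held 93.4% of the summed RPKM of the pair in vector and 91.9% in oeRNF112.

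The choline and ethanolamine headgroup enzymes, which comprise the Kennedy pathway of CDP-choline and CDP-ethanolamine and, outside it, PEMT, gave 1 call among 8 tested genes. That is 12.5%, beside 18.1% of all genes tested. CHPT1, the cholinephosphotransferase that makes phosphatidylcholine from CDP-choline and diacylglycerol, had 43.3, 37.4 and 41.3 CPM in vector and 51.3, 61.5 and 50.2 CPM in oeRNF112. The groups were apart, with oeRNF112 replicate 2 the highest sample, and CHPT1 rose 1.34-fold (log2 fold change 0.42, standard error 0.108, edgeR adjusted p = 0.0254). The call was kept in 11 of 15 alternative fits and lost without vector replicate 1, oeRNF112 replicate 1 or oeRNF112 replicate 2. In GENCODE 29, 9.43% of the exonic bases of CHPT1 lie opposite SYCP3 on the other strand. The kit was stranded, but the strand setting of the counting is not given in the sources used here. The same limit holds for CDIPT (19.8% of exonic bases opposite AC120114.2), CHKA (16.3%, AP002807.1), LPIN3 (13.5%, EMILIN3) and PEMT (10%, AC020558.1). DGAT1 shares 10.7% of its exonic bases with AC233992.1 on the same strand.

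CEPT1, which uses both CDP-choline and CDP-ethanolamine, had 30.0 ± 1.07 CPM in vector and 28.4 ± 1.36 CPM in oeRNF112 (SD, n = 3 each), with a log2 fold change of -0.08 (95% interval -0.28 to 0.12). The ratio of CHPT1 to CEPT1 RPKM was 2.11, 1.93 and 2.14 in vector and 2.66, 3.22 and 2.84 in oeRNF112 (exact two-sided permutation p = 0.1, the smallest possible). As CHPT1 was already called in these samples, the ratio restates that call. Summed over CHPT1, CEPT1 and SELENOI, the ethanolaminephosphotransferase, the final transfer step had 39.05 ± 1.51 RPKM in vector and 49.3 ± 2.37 RPKM in oeRNF112 (SD, n = 3 each), with no overlap of the samples. Summed RPKM, here and below, carry no TMM factor, unlike the CPM values. Under library totals the median log2 fold change over all genes tested was 0.096, beside 0.003 under TMM scaling.

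CHKA, which phosphorylates choline at the entry of the pathway, missed the threshold. It had 16.0, 16.3 and 16.3 CPM in vector and 19.4, 21.6 and 19.2 CPM in oeRNF112, with a log2 fold change of 0.31 (edgeR adjusted p = 0.0515), and 6 of 15 alternative fits called it higher. PCYT1A, which makes CDP-choline and is known as the rate-limiting enzyme of phosphatidylcholine synthesis, had 104 ± 11.2 CPM in vector and 97.8 ± 2.20 CPM in oeRNF112 (SD, n = 3 each), without a call (95% interval of its log2 fold change -0.30 to 0.13). Its counterpart for ethanolamine, PCYT2, had a log2 fold change of -0.18 (edgeR adjusted p = 0.270). For PCYT2, 28.1% of exonic bases lie opposite NPB. ETNK1, the ethanolamine kinase, SELENOI and PEMT, which methylates phosphatidylethanolamine to phosphatidylcholine and is best known from liver, had log2 fold changes of 0.17, 0.06 and -0.27 and no call.

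Phosphatidylserine synthases replace the headgroup of existing phospholipids with serine. PTDSS1 had 163, 151 and 158 CPM in vector and 131, 135 and 125 CPM in oeRNF112. It fell to 0.829 of vector (log2 fold change -0.27, standard error 0.08, edgeR adjusted p = 0.0424). All 3 oeRNF112 samples were below all vector samples, but the call stood close to the threshold: it was kept in 4 of 15 alternative fits, and of the 6 fits without 1 sample only that without vector replicate 2 kept it. PTDSS2, which acts on phosphatidylethanolamine, and PISD, the mitochondrial decarboxylase that turns phosphatidylserine into phosphatidylethanolamine, had log2 fold changes of -0.14 and -0.18 and no call. The summed RPKM of both synthases went from 38.5 ± 1.08 in vector to 34.7 ± 1.09 in oeRNF112 (SD, n = 3 each), and the 6 samples did not overlap between groups.

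The CDP-diacylglycerol branch held the largest change of the set. CDS1, a synthase that activates phosphatidic acid with CTP, had 2.38, 3.43 and 2.31 CPM in vector and 6.54, 6.52 and 8.22 CPM in oeRNF112. The lowest oeRNF112 sample exceeded the highest vector sample, and CDS1 rose 2.62-fold (log2 fold change 1.39, standard error 0.19, 95% interval 0.97 to 1.81, edgeR adjusted p = 0.00145). The call was kept in all 15 alternative fits, with log2 fold changes from 0.73 (limma on log2 of RPKM plus 1, which understates changes of low genes) to 1.6. CDS2, its abundant paralog, had 109, 114 and 91.5 CPM in vector and 99.8, 90.7 and 99.2 CPM in oeRNF112, with overlapping groups (log2 fold change -0.12, 95% interval -0.35 to 0.11).

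CDS1 thus took up a larger share of the summed RPKM of the pair, 4.63%, 6.26% and 5.33% in vector and 12.8%, 13.8% and 15.6% in oeRNF112, with no overlap between groups (exact two-sided permutation p = 0.1, the smallest possible). As CDS1 was already called in these samples, its share restates that call. CDS2 was the more abundant synthase in every sample. The sum itself was 10.7 ± 1.42 RPKM in vector and 11.6 ± 0.847 RPKM in oeRNF112 (SD, n = 3 each) and its samples overlapped (exact two-sided permutation p = 0.6).

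Downstream in this branch, CRLS1, which joins phosphatidylglycerol and CDP-diacylglycerol to cardiolipin, had 57.8, 46.3 and 58.5 CPM in vector and 39.2, 43.3 and 36.1 CPM in oeRNF112. It fell to 0.729 of vector (log2 fold change -0.46, standard error 0.116, edgeR adjusted p = 0.0244). Vector replicate 2 was the nearest vector sample to the oeRNF112 group, and the call held without it or without oeRNF112 replicate 2, but was lost when any of the other 4 samples was left out; 9 of 15 alternative fits kept it. PGS1, which makes the precursor phosphatidylglycerophosphate, lay above vector without a call, at 30.8, 37.6 and 39.03 CPM in vector and 46.5, 41.5 and 43.7 CPM in oeRNF112 (log2 fold change 0.29, edgeR adjusted p = 0.0892). CDIPT had a log2 fold change of -0.15 (95% interval -0.39 to 0.10).

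Lysophospholipid acyltransferases that remodel finished phospholipids gave 1 call among 7 tested genes (14.3%, beside 18.1% of all genes tested). MBOAT2, which acylates lysophosphatidylethanolamine and lysophosphatidylcholine with a preference for oleate, had 99.7, 106 and 83.9 CPM in vector and 123, 116 and 129 CPM in oeRNF112. The groups did not overlap and MBOAT2 rose 1.27-fold (log2 fold change 0.35, standard error 0.103, edgeR adjusted p = 0.0433). Of the fits without 1 sample, only those without vector replicate 2 or oeRNF112 replicate 2 kept this call, as did 10 of all 15 alternatives. MBOAT7 lay lower in all oeRNF112 samples, at 98.6, 97.8 and 120 CPM in vector and 93.3, 86.8 and 85.8 CPM in oeRNF112, without a call (log2 fold change -0.25, edgeR adjusted p = 0.113). In the summed RPKM of MBOAT1, MBOAT2 and MBOAT7, the share of MBOAT2 was 25.7% ± 4.19 in vector and 33.6% ± 1.61 in oeRNF112 (SD, n = 3 each), with no overlap.

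Among the LPCAT enzymes no gene passed the test, beside 18.1% of all genes tested. LPCAT4 had 28.5, 29.9 and 35.1 CPM in vector and 41.6, 39.5 and 37.1 CPM in oeRNF112 (log2 fold change 0.34, edgeR adjusted p = 0.0519), and 7 of 15 alternative fits called it higher. LPCAT3, which incorporates polyunsaturated chains into phosphatidylcholine, had 36.3, 41.2 and 40.7 CPM in vector and 33.0, 31.8 and 34.4 CPM in oeRNF112 (log2 fold change -0.25, edgeR adjusted p = 0.0862). Of the exonic bases of LPCAT3, 65.6% lie opposite EMG1, so its count depends on the strand setting. LPCAT4 held 25.7% ± 1.58 of the LPCAT family's summed RPKM in vector and 33.1% ± 1.48 in oeRNF112 (SD, n = 3 each), and LPCAT1, known from lung surfactant, went from 42.2% to 39.5%, each without overlap. Such lack of overlap held for 17 of the 32 isoenzyme shares examined. MBOAT1 and LCLAT1, the latter an acyltransferase of lysocardiolipin, had log2 fold changes of 0.17 and -0.10.

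Of the 29 genes without a call, 28 had a 95% interval inside a 1.5-fold change in either direction, which bounds how far they could have moved at this spread. Their log2 fold changes ran from -0.32 to 0.34. An unadjusted p under 0.05 was reached by 6 of them, and by 13 of all 36 tested genes (36.1%), beside 33.1% of all genes tested (edgeR). In 8 of the 29 (27.6%) the groups did not overlap, beside 22.9% of all genes without a call, with CHKA, PGS1 and LPCAT4 above and AGPAT3, PCYT2, PISD, LPCAT3 and MBOAT7 below vector.

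The spread between samples was described by the coefficient of variation of normalized CPM. The median coefficient of variation was 10.9% in vector and 6.69% in oeRNF112 for the 36 genes, beside 11.2% and 9.89% for all genes tested. Vector replicate 3 was the highest vector sample for 17 and the lowest for 14 of the 36 genes, while vector replicate 1 was seldom the highest (4 genes). In oeRNF112, replicate 1 was the highest sample for 16 genes and replicate 2 the lowest for 17.

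Other genes that feed the pathway were read from the same fit. Their list covered glycerol-3-phosphate supply, choline transport, diacylglycerol kinases and phosphatidate phosphatases, and further acyltransferases, headgroup and cardiolipin enzymes outside the set. Of its 26 tested genes, 2 rose and none fell (7.69% called, beside 18.1% of all genes). The median log2 fold change was 0.09 beside 0.003 for all genes. Glycerol kinase GK, which makes glycerol-3-phosphate from free glycerol, had 9.81, 10.5 and 8.27 CPM in vector and 14.98, 14.8 and 16.6 CPM in oeRNF112. It rose 1.62-fold (log2 fold change 0.70, standard error 0.123, edgeR adjusted p = 0.00474) and was called in all 15 alternatives. DGKE, a diacylglycerol kinase that returns diacylglycerol to phosphatidic acid, rose 1.53-fold (log2 fold change 0.61, edgeR adjusted p = 0.0238), a call kept in 10 of 15 alternatives and lost without vector replicate 1 or 3 or oeRNF112 replicate 1 or 3.

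Of 29 tested genes that break the same lipids down or control that step, 4 rose and 3 fell (24.1% called, beside 18.1% of all genes), with a median log2 fold change of 0.05. G0S2, known as an inhibitor of the triglyceride lipase PNPLA2 and so not itself a breakdown enzyme, had 312, 261 and 349 CPM in vector and 600, 726 and 555 CPM in oeRNF112. It rose 2.04-fold (log2 fold change 1.03, standard error 0.132, edgeR adjusted p = 0.00108). GPCPD1, which releases choline from glycerophosphocholine, had 21.3, 23.0 and 21.0 CPM in vector and 39.9, 37.1 and 39.8 CPM in oeRNF112. The samples of each group lay close together, and GPCPD1 rose 1.79-fold (log2 fold change 0.84, standard error 0.0913, edgeR adjusted p = 0.000463).

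Phospholipase D cleaves phosphatidylcholine to phosphatidic acid and choline. PLD1 had 48.4, 49.9 and 37.8 CPM in vector and 27.5, 25.01 and 24.3 CPM in oeRNF112, and fell to 0.564 of vector (log2 fold change -0.83, standard error 0.12, edgeR adjusted p = 0.00195). PLD2 fell to 0.779 of vector (log2 fold change -0.36, edgeR adjusted p = 0.0190), a call that 7 of 15 alternatives kept and that was lost without vector replicate 1, oeRNF112 replicate 1 or oeRNF112 replicate 2. GDPD1 and the phospholipase DDHD1 rose 1.7-fold and 1.46-fold (edgeR adjusted p = 0.0225 and 0.0254). GDPD1 lost its call without vector replicate 1 or oeRNF112 replicate 3, and DDHD1 without vector replicate 1 or 3 or oeRNF112 replicate 1 or 3. The remaining gene, PNPLA6, a phospholipase of the endoplasmic reticulum, had a log2 fold change of -0.38 (edgeR adjusted p = 0.0293), kept in 5 of 15 alternatives and in the fits without 1 sample only without vector replicate 2; it was named after its value had been seen.

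Promoters were searched for a pair of letter sequences linked to MYC and to lipid metabolism: the E-box CACGTG, which dimers of MYC and MAX are known to bind, and TCACNCCAC, a form of the sterol regulatory element, both on either strand. RefSeq (GRCh38.p14) gave 47 promoters, from 250 bases before to 50 bases after a gene start, for 30 of the 39 listed genes. The E-box was present in those of 3 genes (LPIN2, PEMT and PTDSS2), beside 8.77% of all 27305 genes and 7.26% of all 35116 promoters. The sterol element was in none of the 47, beside 1.13% of all promoters. None of the 3 genes with an E-box differed between the groups at an adjusted p under 0.05, and GPAM, GPAT3, CHPT1, CDS1, CRLS1 and MBOAT2 had entries without either letter sequence, while PTDSS1 had no entry. Absence says only that these letters are not in this window. The 4 matches are shown, with the E-box in capitals and 12 bases on each side, in the direction of the gene, because they are the only places where the searched letters met the promoters at hand. The 9 genes without an entry were not searched:
PTDSS2, chr11:448026-448055, plus strand, 230 bases before the start: aattctacttggCACGTGgccagagctccg
PTDSS2, chr11:448061-448090, plus strand, 195 bases before the start: atgggcaacgaaCACGTGgtctgcgcgccc
PEMT, chr17:17577562-17577591, minus strand, 83 bases before an internal start: gggggcagtgtcCACGTGccccccgtatgc
LPIN2, chr18:3013337-3013366, minus strand, 210 bases before the start: gggagcgcgcgtCACGTGgctggggcgggg
The PEMT match lies 14563 bases inside the gene, before an alternative start, whereas the other 3 lie before the first base of their genes. PTDSS2 has a pair of E-boxes, and its log2 fold change was -0.14 (95% interval -0.39 to 0.10). PEMT and LPIN2 had log2 fold changes of -0.27 and 0.23 (edgeR adjusted p = 0.164 and 0.244), so the fold changes of the 3 genes differed in sign. A match is a description of the sequence and not evidence of binding.

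The 6 called genes with a promoter entry lie on several chromosomes of GRCh38.p14. GPAT3 (chr4:83535587-83605875) and CDS1 (chr4:84583127-84651334) are on the same chromosome, and both rose. GPAM is at chr10:112149865-112227677, CHPT1 at chr12:101697640-101729074, CRLS1 at chr20:6005938-6040053 and MBOAT2 at chr2:8852690-9003684.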

How the data were processed

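T24 RNA-seq was deposited as whole-number counts for each gene, not normalized, and as RPKM values that the authors computed from those counts, the column totals and a gene length (for 20637 of 20637 genes checked, a single length gave all 6 values within 1%). The submitters' processing notes name Trimmomatic 0.36, featureCounts, Subread 1.5.1 and GRCh38. The aligner, annotation and strand setting are not given in the sources used here.

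Counts of all genes were fitted with edgeR 4.0.16 in R 4.3.3 (filterByExpr, TMM, glmQLFit and glmQLFTest, two-sided, group as the only term, Benjamini-Hochberg over 14467 genes, threshold 0.05). The study's methods state no test for these counts. Alternatives were DESeq2 1.42.0, DESeq2 size factors in edgeR, library totals, no filter, at least 10 counts in every sample, a replicate block, each sample left out, and limma 3.58.1 on log2(RPKM + 1), log2(RPKM + 0.1) or genes whose mean RPKM reached 1. Shares and ratios used RPKM and exact permutation tests. Those that hold a called gene come from the same samples as its call and are no separate support. Normalized CPM are TMM-scaled, whereas the marker sums used library totals.

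The members and the gene lists were chosen with earlier results of these data known. Named are RNF112, every member, and of the 2 other pathway lists at most 6 genes with the smallest p among those called. PNPLA6 falls outside this rule. The rule on promoters covered called members with a match, and as there was none, the windows of 3 other members are shown. No 2 samples were copies.

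On simulated data for this comparison (14480 genes), edgeR recovered 49.2% of genes changed by an absolute log2 of 0.5, 92.1% at 1 and 100% at 2, with 6 false calls among 167. DESeq2 made 18 false calls among 176 (22142 genes), which bears on genes that it called and the reported fit did not. The simulation gave every gene the same spread beyond counting error and changed far fewer genes than were called in the data. These rates need therefore not hold for the data. At these totals (40029547 to 41259569 reads) counting error is small except for genes of low counts. Promoter sequences are from RefSeq, overlaps from GENCODE 29.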

Additional observations from a re-analysis of the deposited data

How the results depend on the processing

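Across the 15 alternatives no called enzyme gene changed direction, CDS1 was called in all and GPAT3 in all but that with a replicate block (adjusted p = 0.0720). Each cause below was not tested unless the setting itself gives it. With the replicate block 876 genes were called, 618 higher and 258 lower, and of the enzyme genes 1 higher (CDS1) and 0 lower, with 1 call among the other synthesis genes and 3 among the breakdown genes. Deviations from the group means correlated at -0.116, -0.363 and -0.296 between samples of equal number, which gives no sign of pairing by number. Deviations within a group sum to 0 for each gene, so these negative values go with a positive summed covariance between samples of unequal number. Samples of unequal number were not compared pair by pair, and the source of a difference shared between groups under other numbers was not tested. The counts of the block fit do not measure a weaker effect. Library totals gave 659 genes lower, 7 enzyme genes higher and 1 lower, 4 other synthesis genes and a median of 0.082. limma on log2(RPKM + 1) gave 669 genes lower, 0 enzyme genes lower, 4 other synthesis genes and a median of 0.074, a pseudocount of 0.1 gave 682, 1, 4 and 0.086, and a mean RPKM of at least 1 gave 603 lower, 1 enzyme gene lower and a median of 0.074. RPKM values carry no TMM factor. Leaving out each sample in turn gave between 1061 and 3387 genes called (702 to 1841 higher, 359 to 1546 lower), 2 to 8 enzyme genes (2 to 5 higher, 0 to 3 lower), 1 to 3 other synthesis genes, 3 to 8 breakdown genes and a median of -0.052 to 0.004. The fewest calls came without vector replicate 1 (1061 genes, 2 enzyme genes) and the most without vector replicate 2 (3387 genes, 8 enzyme genes).

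Signs changed only for genes near 0 that were never called. With library totals and the 3 limma fits in the order above, log2 fold changes were 0.089, 0.085, 0.090 and 0.085 for AGPAT1, 0.086, 0.074, 0.084 and 0.074 for LPIN1, 0.060, 0.055, 0.061 and 0.055 for LPIN3, 0.078, 0.075, 0.088 and 0.075 for DGAT1, 0.008, 0.014, 0.015 and 0.014 for PCYT1A and 0.014, 0.013, 0.014 and 0.013 for CEPT1. With at least 10 counts in every sample AGPAT1 had 0.002 and LPIN1 0.001. Leaving out single samples gave -0.059 to 0.081 for AGPAT1, -0.066 to 0.130 for AGPAT2, -0.063 to 0.084 for LPIN1, -0.112 to 0.046 for LPIN3, -0.106 to 0.135 for DGAT1 and -0.075 to 0.156 for SELENOI. Depth limits DGAT2, CHKB and LPCAT2 most. CDS1 had 94, 137 and 89 reads in vector, so counting error is also a part of its spread there (coefficient of variation 23.2%).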
